A study of Homo sapiens with 18 samples.

Results

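The genes described here are 32 collagens and matrix glycoproteins: 19 collagen chains, fibronectin (FN1), the fibrillins FBN1 and FBN2, the latent TGF-beta binding protein LTBP1, the matricellular proteins and proteoglycans SPARC, SPOCK1, THBS1, TNC and VCAN, and the basement membrane components HSPG2, AGRN, NID1 and NID2. They were taken by symbol from a list drawn up with earlier results of these data known. Each was found once, and together they make up 32 of the 36601 gene IDs in the count tables. Shares of the 32 genes set beside shares of all genes below are therefore descriptive and do not test the list. Polyadenylated RNA was sequenced from 18 libraries of 3 human cholangiocarcinoma lines, bile duct cancers grown as stable lentiviral lines. In each line 3 libraries carried a short hairpin RNA against RNF213, a ubiquitin ligase (shRNF213, a single hairpin labelled #2), and 3 carried a control hairpin (shControl). The groups were HuCCT1 shRNF213 and HuCCT1 shControl (labelled bile duct), YSCCC shRNF213 and YSCCC shControl (labelled liver), and KKU-100 shRNF213 and KKU-100 shControl (labelled biliary tract). HuCCT1 and YSCCC grew in RPMI-1640 and KKU-100 in Ham's F12, all with serum, so a difference between KKU-100 and the other lines cannot be told apart from a difference of medium. The replicates are described as biological. Whether they came from separate transductions is not stated, so p-values speak for these samples only. In the comparisons of arms, paired by replicate number, p-values measure how much the differences between arms vary over the pairs. Between lines they measure the spread of the shControl libraries.

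Collagens are triple helices of 3 alpha chains that are folded in the endoplasmic reticulum with the chaperone SERPINH1, secreted, and cross-linked outside the cell. Fibrillar collagens give tensile strength, collagen IV forms the sheet of the basement membrane together with laminins, nidogens and perlecan, and collagen VI forms beaded filaments next to it. Fibronectin and the fibrillins bind cells through integrins and hold growth factors, and matricellular proteins change how cells attach. In the bile duct the epithelium lays down the basement membrane, and most fibrillar collagen around a cholangiocarcinoma comes from stromal fibroblasts.

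Library totals ran from 21056732 to 25502097 counts, and the 32 genes took 0.210% to 0.842% of them. RNF213 was lower in shRNF213 than in shControl in 9 of 9 pairs of equal replicate number, with log2 fold changes of -0.89 in HuCCT1, -1.16 in YSCCC and -0.97 in KKU-100 (edgeR adjusted p = 0.136, 0.000307 and 0.0462). Libraries with the same replicate number deviated together in each line, so the replicate number entered the tests as a block. YSCCC replicate 3 stood apart in both arms: summed CPM (counts scaled to library size) of 10 genes of endoplasmic reticulum and ATF4 stress was 4306 in its shRNF213 and 5758 in its shControl library, against 1928 to 2212 in the other YSCCC libraries. HuCCT1 replicate 2 stood apart by 13 interferon-response genes, with a summed 7211 CPM in shRNF213 and 7171 CPM in shControl, against 605 to 1066 CPM in the other HuCCT1 libraries. All 9 epithelial markers exceeded 1 TPM (the authors' length-scaled transcript unit) in every HuCCT1 library and 8 did in YSCCC, but only 4 did in KKU-100. These 4 were KRT7 (185.5 to 381.6 TPM), KRT8 (491 to 729 TPM), KRT18 (578 to 860 TPM) and SOX9 (82.5 to 159 TPM). In KKU-100 the bile duct keratin KRT19 and the adhesion protein EPCAM peaked at 0.291 and 0.118 TPM. Of 10 fibroblast markers 6, 3 and 7 stayed under 1 TPM in every library of HuCCT1, YSCCC and KKU-100. In the same order of lines 3, 7 and 3 of them reached at least 1 TPM in every library. PDGFRA and PDGFRB, among the low ones, peaked at 0.672 TPM over all libraries. ACTA2 ran from 42.2 to 88.1 TPM, TAGLN from 16.8 to 155 TPM and FAP from 1.478 to 4.255 TPM in KKU-100. ACTA2, TAGLN and LUM exceeded 1 TPM in every HuCCT1 library, and ACTA2, TAGLN, DCN, FAP and THY1 did in every YSCCC library. YSCCC expressed the stromal matrix genes POSTN (25.5 to 302 TPM) and LUM (28.5 to 211 TPM). Of 5 endothelial markers 5, 3 and 4 stayed under 1 TPM in every library of HuCCT1, YSCCC and KKU-100. In YSCCC only 1 of them, the endothelial cadherin CDH5 (10.1 to 62.7 TPM), reached 1 TPM in every library, and PECAM1 ran from 0.364 to 1.64 TPM.

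The lines differed in the levels of their matrix transcripts. In shControl cells 22 of the 32 genes averaged at least 1 TPM in HuCCT1, 22 in YSCCC and 23 in KKU-100. Of the 32, 23 genes were highest in 1 line with no overlap with the libraries of the others: 12 in HuCCT1, 6 in YSCCC and 5 in KKU-100. The share of all genes separated in this way was not computed, so this count is not read as particular to the 32 genes. Of the 30 genes with at least 1 TPM in a line, 11 (36.7%) stood at least 10-fold above the next line, against 11.4% of the 18045 genes of the whole table that passed the same limit. Between lines, edgeR called 25 of 32 genes at an adjusted p under 0.05 in each of the 3 contrasts of shControl libraries. YSCCC over HuCCT1 gave 10 higher and 15 lower genes, where 30.2% and 28.1% of the 18010 genes tested were called in these directions. KKU-100 over HuCCT1 also gave 10 higher and 15 lower, against 27.3% and 30.1% of all genes. YSCCC over KKU-100 gave 13 higher and 12 lower, against 32.9% and 27.9%. These contrasts share control libraries.

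**Figure D1:**
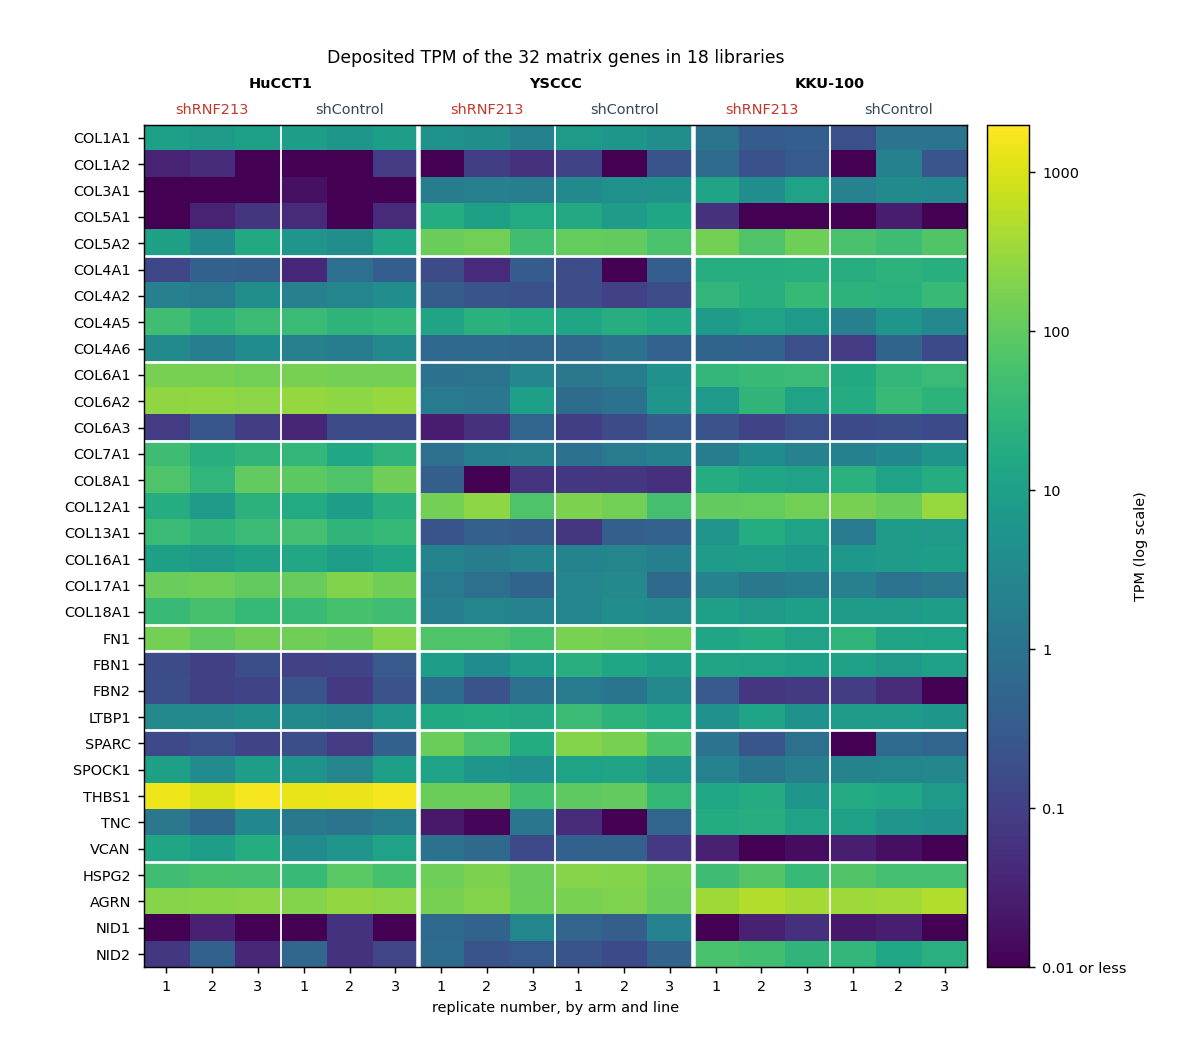
Deposited TPM (colour, log scale, values of 0.01 or less drawn as 0.01) of the 32 genes (rows, white lines between families) in 18 libraries (columns by line, shRNF213 left of shControl, then replicate number). THBS1, COL6A1 and COL6A2 are bright in HuCCT1, SPARC and COL5A1 in YSCCC, and COL4A1, COL4A2 and NID2 in KKU-100, in both arms.

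The leading transcripts differed in the same way. In HuCCT1 the matricellular protein THBS1 alone held 52.5% of the summed TPM of the 32 genes in shRNF213 and 51.8% in shControl cells. In YSCCC the basement membrane proteoglycans AGRN and HSPG2 were the top pair in shControl cells and ranked 1 and 3 around COL12A1 (159 TPM) in shRNF213 cells, with 169 ± 40.3 and 145 ± 32.2 TPM in shRNF213 and 162 ± 31.8 and 187 ± 45.5 TPM in shControl cells (SD, n = 3 each). In KKU-100 AGRN held 41.6% and 41.5% of the members' TPM in shRNF213 and shControl cells. Summed over all 32 genes, the level was 2674 ± 412 TPM in HuCCT1 shRNF213 and 2837 ± 295 in HuCCT1 shControl cells, 903 ± 284 in YSCCC shRNF213 and 1057 ± 313 in YSCCC shControl cells, and 989 ± 62.4 in KKU-100 shRNF213 and 956 ± 180 in KKU-100 shControl cells (SD, n = 3 each). In no line did this sum separate all libraries of the arms. Paired by replicate number, it was lower in shRNF213 in each YSCCC pair (994, 1131 and 585 TPM against 1291, 1177 and 702 TPM in replicates 1 to 3). Pairs went both ways in HuCCT1 and in KKU-100. The paired difference of the sum was not tested.

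The hairpin comparison asks which of these transcripts differed between shRNF213 and shControl cells of a line. In YSCCC 9 of 28 tested genes fell (FN1, SPARC, FBN2, COL3A1, FBN1, COL17A1, LTBP1, COL1A1 and HSPG2) and 2 rose (THBS1 and COL6A2), by edgeR's paired quasi-likelihood test with Benjamini-Hochberg adjustment. In bulk RNA fewer cells with a transcript and less of it per cell cannot be told apart. Among all 16932 genes tested there, 4.56% fell and 3.69% rose. In KKU-100 2 of 28 rose (COL4A5 and TNC) and 0 fell, where 0.302% of 14915 genes rose and 0.141% fell. In HuCCT1 0 of 26 were called by edgeR, where 0.140% of 15747 genes were called in either direction. Of the 26, 9 (34.6%) had an unadjusted p under 0.05, 6 of them higher, where 11.1% of all genes tested did. Paired DESeq2 called 1 in HuCCT1, for which no share of all genes is given. The genes not tested for low counts were COL1A2, COL3A1, COL5A1, SPARC, NID1 and NID2 in HuCCT1, COL1A2, COL6A3, COL8A1 and TNC in YSCCC, and COL5A1, FBN2, VCAN and NID1 in KKU-100. The median log2 fold change was 0.01 in HuCCT1, -0.11 in YSCCC and 0.05 in KKU-100, against 0.00, 0.01 and 0.00 over all genes tested. Other lists moved beside these calls. In YSCCC 2 of 3 tested endothelial markers rose (CDH5 0.58 and PECAM1 1.12), and their summed level was 25.9 to 64.3 TPM in shRNF213 and 10.47 to 50.2 TPM in shControl libraries. Of 7 tested fibroblast markers 1 rose (POSTN 1.44) and 1 fell (THY1 -0.90), with a summed 104 to 503.6 TPM in shRNF213 and 95.7 to 284.9 TPM in shControl libraries. Of 8 tested epithelial markers 1 fell (CDH1 -0.57), and the summed level of the epithelial list overlapped between the arms. Paired by replicate number in YSCCC, the epithelial sum was lower in shRNF213 in each pair, and the endothelial and fibroblast sums were higher in each pair. The 1 hepatocyte marker tested rose (SERPINA1 0.99). Of the state lists, 2 of 13 interferon-response genes rose in YSCCC (IFI44L 0.93 and IFI44 0.63) and 1 of 10 stress genes fell there (HERPUD1 -0.54), and in KKU-100 2 of 13 interferon-response genes fell (IFIT2 -1.41 and RSAD2 -1.24). The part of these genes in the members' differences was not tested.

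The block decided these calls. Without the replicate block edgeR called 0 of the 32 genes in every comparison of arms; it called 0% of all genes in HuCCT1 and in YSCCC, 0.0134% in KKU-100, 0.146% for the mean effect over lines and 0% for each of the 3 differences between lines. At an unadjusted p under 0.05 that fit had 0 of 26 in HuCCT1, 3 of 28 in YSCCC and 5 of 28 in KKU-100, where 2.46%, 4.74% and 6.48% of all genes tested had one. DESeq2 without the block called 0 in HuCCT1, 2 in YSCCC (FN1 and COL3A1) and 2 in KKU-100, COL4A5 among them. No share of all genes is given for these DESeq2 counts. Libraries of the arms were fully separated for 0 of 26 genes in HuCCT1, where 8.47% of all genes were, for 4 of 28 in YSCCC (COL3A1, COL18A1, FN1 and FBN2, each lower in shRNF213), where 10.6% were, and for 4 of 28 in KKU-100 (COL3A1, COL4A5 and TNC higher, SPOCK1 lower), where 12.2% were.

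**Figure D2:**
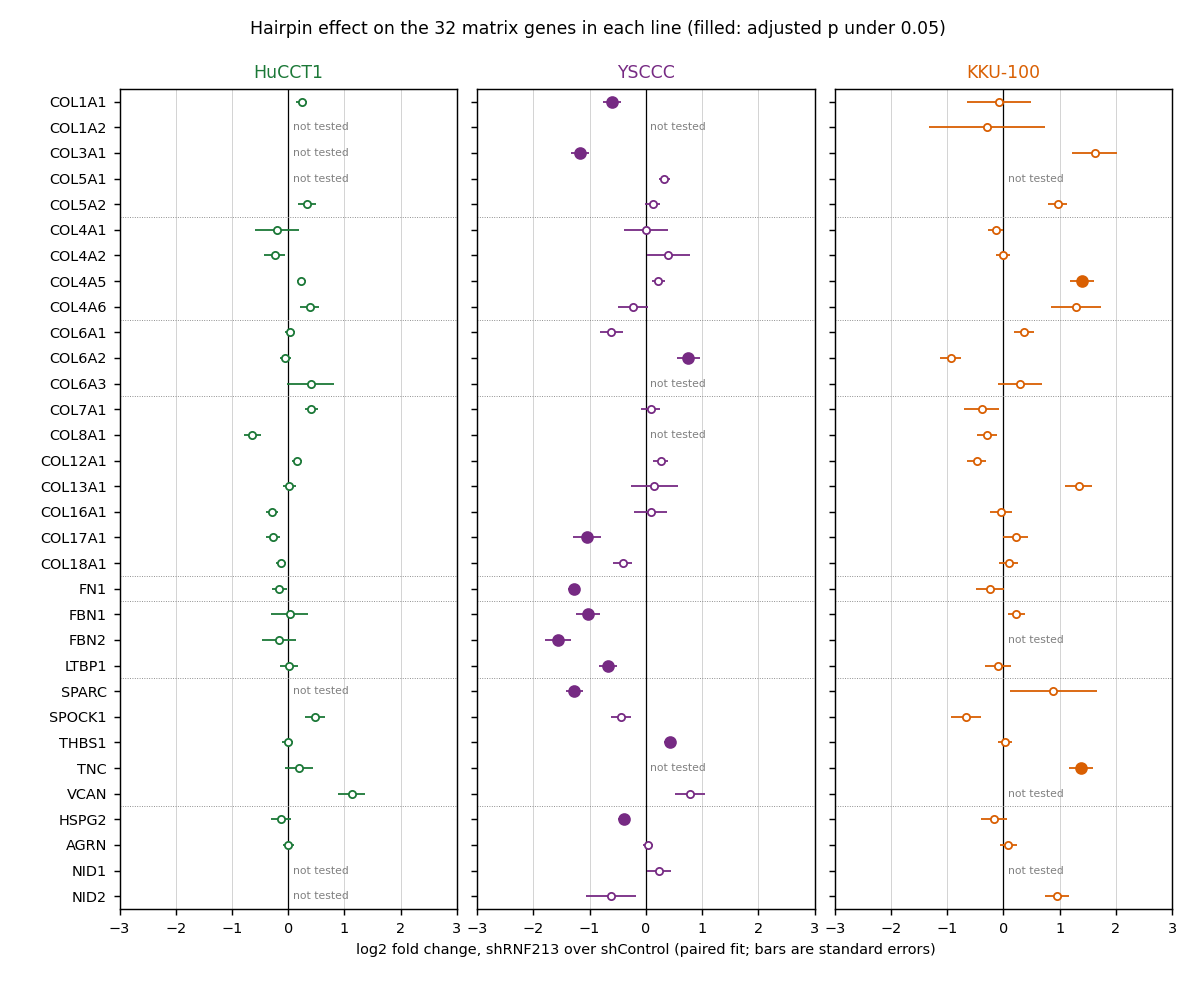
Log2 fold change of shRNF213 over shControl (x axis, paired edgeR fit, bars are standard errors) for the 32 genes (rows, dotted lines between families) in HuCCT1, YSCCC and KKU-100; filled points have an adjusted p under 0.05 and genes too low to test are marked. The YSCCC panel holds 9 filled points left of 0 and 2 right of it, the KKU-100 panel 2 right of 0, and the HuCCT1 panel none.

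Among fibrillar collagens, the type V chain COL5A2 had the highest mean TPM in YSCCC and KKU-100, with 108 ± 53.2 TPM in YSCCC shRNF213 and 92.2 ± 25.8 in YSCCC shControl cells (SD, n = 3 each). The type V partner COL5A1, which starts heterotypic fibrils with type I collagen, was at 12.7 TPM in YSCCC shControl cells and at 0.03001 and 0.00855 TPM in HuCCT1 and KKU-100. The type I chains were unbalanced: COL1A1 averaged 8.13 TPM in HuCCT1 shControl cells while its partner in heterotrimeric type I collagen, COL1A2, averaged 0.0278 TPM, and in KKU-100 both stayed under 1 TPM on average. COL3A1, the chain of homotrimeric type III collagen, had at most 2 counts in a HuCCT1 library.

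COL3A1 differed between arms with opposite signs in YSCCC and KKU-100, and the YSCCC difference passed in the fit of that line. In YSCCC it had 4.04, 4.65 and 3.98 CPM in shRNF213 replicates 1 to 3, against 7.59, 10.9 and 10.3 CPM in shControl replicates 1 to 3. All 3 YSCCC shRNF213 libraries lay below all shControl libraries, and it fell by 1.17 ± 0.17 on the log2 scale (SE, edgeR adjusted p = 0.00127). In the blocked fit of all 18 libraries, which shares the spread over lines, the same difference missed the threshold (adjusted p = 0.0618), as did those of COL6A2 (0.064), LTBP1 (0.103), COL1A1 (0.264) and HSPG2 (0.402) in YSCCC. In KKU-100 it had 34.6, 9.53 and 29.9 CPM in shRNF213, against 5.44, 8.31 and 7.42 CPM in shControl cells. The KKU-100 arms did not overlap either, but replicate 2 of shRNF213 lay only just above the highest control, and the log2 difference of 1.62 ± 0.40 did not pass (edgeR adjusted p = 0.136).

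COL1A1 and COL5A2 were the other fibrillar chains with a call. COL1A1 had 10.45, 9.53 and 4.09 CPM in YSCCC shRNF213 replicates 1 to 3, against 15.01, 12.6 and 7.84 CPM in shControl replicates 1 to 3. It was lower in each of the 3 pairs although the arms overlapped, since replicate 3 was low in both, and it fell by 0.61 ± 0.15 on the log2 scale (edgeR adjusted p = 0.0298). That call was lost without any 1 of the 3 replicates (adjusted p = 0.182, 0.0616 and 0.075). COL5A2 had 520.3, 204 and 440.4 CPM in KKU-100 shRNF213, against 188, 143 and 224 CPM in KKU-100 shControl cells. Replicates 1 and 3 of shRNF213 lay above every control library and replicate 2 among them, and the KKU-100 difference of 0.97 ± 0.17 gave an edgeR adjusted p of 0.0634.

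Collagen IV, the network of the basement membrane, was split between lines by gene pair. COL4A1 and COL4A2, the chains of the ubiquitous network, had 20.3 ± 0.639 and 28.8 ± 7.39 TPM in KKU-100 shRNF213 and 22.7 ± 3.85 and 29.2 ± 6.85 TPM in KKU-100 shControl cells (SD, n = 3 each). In shControl cells COL4A1 averaged 0.425 TPM in HuCCT1 and 0.187 TPM in YSCCC. On the log2 scale COL4A2 differed by 3.94 ± 0.25 for KKU-100 over HuCCT1 and by -7.76 ± 0.32 for YSCCC over KKU-100 (edgeR adjusted p = 1.06e-06 and 6.14e-08). COL4A5, a chain of the collagen IV network that is mutated in Alport syndrome, followed another order: 34.1 ± 6.20 TPM in HuCCT1, 15.7 ± 3.53 in YSCCC and 3.69 ± 2.01 in KKU-100 shControl cells, and each step was called between lines.

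Both pairs are transcribed away from a shared start region, which is why these windows are shown. In the deposited annotation COL4A1 (chromosome 13, minus strand) and COL4A2 (plus strand) overlap by 1345 bases, so reads of the overlap could count for either gene, and COL4A5 (chromosome X, plus strand) and COL4A6 (minus strand) lie 347 bases apart. RefSeq promoter windows (GRCh38.p14, 250 bases before to 50 bases after the annotated start) were found for 24 of the 32 genes; below are the window of COL4A1, chr13:110307108-110307407, minus strand, which also holds the start of COL4A2 at its base 124, and those of COL4A5, chrX:108439588-108439887, plus strand, and COL4A6, chrX:108439409-108439708, minus strand. The start sites of COL4A1 and COL4A2 are 127 bases apart and those of COL4A6 and COL4A5 are 380.0 bases apart. Capitals mark the CCAAT box, whose reverse complement is ATTGG, the GC box GGGCGG, whose reverse complement reads CCGCCC, and the TATA box TATAAA, which on the other strand reads TTTATA, and no marked match overlaps another. The COL4A5 and COL4A6 windows share 121 bases.
COL4A1: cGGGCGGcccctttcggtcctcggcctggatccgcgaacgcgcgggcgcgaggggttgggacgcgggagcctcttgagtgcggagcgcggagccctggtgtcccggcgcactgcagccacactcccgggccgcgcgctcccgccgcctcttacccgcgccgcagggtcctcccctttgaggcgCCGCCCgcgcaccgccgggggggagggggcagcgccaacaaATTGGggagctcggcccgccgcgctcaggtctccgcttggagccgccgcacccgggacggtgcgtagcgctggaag
COL4A5: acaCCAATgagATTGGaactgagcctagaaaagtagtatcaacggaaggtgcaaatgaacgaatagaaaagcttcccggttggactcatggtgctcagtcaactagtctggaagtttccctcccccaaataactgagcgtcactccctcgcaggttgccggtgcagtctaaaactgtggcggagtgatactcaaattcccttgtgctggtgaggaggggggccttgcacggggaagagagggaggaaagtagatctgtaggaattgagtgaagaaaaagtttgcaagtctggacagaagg
COL4A6: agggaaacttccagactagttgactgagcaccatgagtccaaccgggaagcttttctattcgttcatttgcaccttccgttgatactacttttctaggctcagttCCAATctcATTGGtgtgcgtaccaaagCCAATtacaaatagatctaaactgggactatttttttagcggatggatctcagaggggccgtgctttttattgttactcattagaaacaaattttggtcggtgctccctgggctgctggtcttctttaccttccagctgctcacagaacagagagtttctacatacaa
The COL4A1 window holds 1 CCAAT and 2 GGGCGG matches and is 76.7% G and C. The COL4A5 window holds 2 CCAAT matches and no GGGCGG at 49.3% G and C, and the COL4A6 window 3 CCAAT matches and no GGGCGG at 43.7%. TATAAA was in none of these windows. Among all 35116 RefSeq windows 34.6% hold CCAAT, 45.0% GGGCGG and 11.5% TATAAA. These matches describe letters and were not tested as binding sites.

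Levels followed the shared starts unevenly. COL4A2 and COL4A1 were both at or above 19.6 TPM in every KKU-100 library, with a COL4A2 to COL4A1 ratio of 1.42 ± 0.339 in shRNF213 and 1.32 ± 0.413 in shControl cells (SD, n = 3 each). In HuCCT1 the ratio ran from 3.43 to 14.0 in shRNF213 and from 3.05 to 48.4 in shControl libraries. In YSCCC it ran from 0.631 to 5.465 in shRNF213 and was 1.01 and 0.476 in shControl replicates 1 and 3, with COL4A1 at 0 TPM in replicate 2. COL4A1 was under 1 TPM in every library of these 2 lines. COL4A5 exceeded COL4A6 in all 18 libraries, by a TPM ratio between 10.4 and 38.9. COL4A5 was also the one gene of the 32 that was higher in shRNF213 in 9 of 9 pairs. In KKU-100 it had 24.9, 30.4 and 22.5 CPM in shRNF213 replicates 1 to 3, against 6.003, 16.3 and 8.80 CPM in shControl replicates 1 to 3. All 3 shRNF213 libraries lay above all 3 controls, and COL4A5 rose by 1.40 ± 0.22 on the log2 scale, a 2.64-fold difference (edgeR adjusted p = 0.0462). Without replicate 3 the KKU-100 call was lost at a difference of 1.44 (adjusted p = 0.188). In HuCCT1 it had 138, 91.2 and 111 CPM in shRNF213, against 109.7, 83.6 and 92.8 CPM in shControl cells. In YSCCC it had 33.6, 59.2 and 45.3 CPM in shRNF213, against 33.1, 51.5 and 33.3 CPM in shControl cells. In these 2 lines the arms overlapped and the differences of 0.23 ± 0.08 and 0.22 ± 0.13 did not pass. The mean effect over the 3 lines was 0.61 ± 0.09 (edgeR adjusted p = 0.00209, 18 libraries), and it passed in 12 of the 12 fits that left out 1 replicate number or 1 pair. COL4A6 had 1.31, 1.12 and 0.714 CPM in KKU-100 shRNF213, against 0.257, 0.813 and 0.238 CPM in shControl cells, a difference of 1.29 ± 0.45 that did not pass (edgeR adjusted p = 0.229).

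Collagen VI forms beaded filaments from COL6A1, COL6A2 and a further chain such as COL6A3. COL6A2 and COL6A1 were abundant in HuCCT1, with 262 ± 16.6 and 159 ± 9.16 TPM in shRNF213 and 282 ± 24.6 and 158.5 ± 2.99 TPM in shControl cells (SD, n = 3 each), while COL6A3 averaged under 0.2 TPM in the shControl cells of every line. Relative to HuCCT1, the log2 difference of COL6A2 was -7.12 ± 0.72 in YSCCC and -3.46 ± 0.60 in KKU-100 (edgeR adjusted p = 2.34e-05 and 0.000671). COL6A1 and COL6A2 lie on the same strand of chromosome 21, 93047 bases apart.

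Of the collagen VI chains, COL6A2 rose in YSCCC, and no collagen VI chain passed in HuCCT1 or KKU-100. In YSCCC COL6A2 had 2.29, 1.74 and 12.8 CPM in shRNF213 replicates 1 to 3, against 1.11, 1.33 and 7.34 CPM in shControl replicates 1 to 3. It was higher in each pair, replicate 3 was the highest library of each arm, the arms overlapped, and it rose by 0.75 ± 0.20 on the log2 scale (edgeR adjusted p = 0.039). That call was lost without any 1 replicate (adjusted p = 0.243, 0.0582 and 0.183) and with paired DESeq2 (0.0865). COL6A1 had 1.59, 1.74 and 4.31 CPM in YSCCC shRNF213, against 1.93, 2.93 and 7.16 CPM in shControl cells, a difference of -0.61 ± 0.21 (edgeR adjusted p = 0.0918). In KKU-100 COL6A2 had 11.6, 42.5 and 17.8 CPM in shRNF213, against 27.3, 56.0 and 39.9 CPM in shControl cells, lower in each pair by -0.94 ± 0.19 (edgeR adjusted p = 0.0963). The ratio of COL6A2 to COL6A1 in TPM was 1.61, 1.17 and 3.45 in YSCCC shRNF213 against 0.603, 0.550 and 1.18 in YSCCC shControl cells, and 0.233, 0.770 and 0.285 in KKU-100 shRNF213 against 1.07, 1.12 and 0.631 in KKU-100 shControl cells. The ratio, which was not tested, was higher in each YSCCC pair and lower in each KKU-100 pair, while in HuCCT1 it stayed between 1.58 and 1.87 in all 6 libraries.

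**Figure D3:**
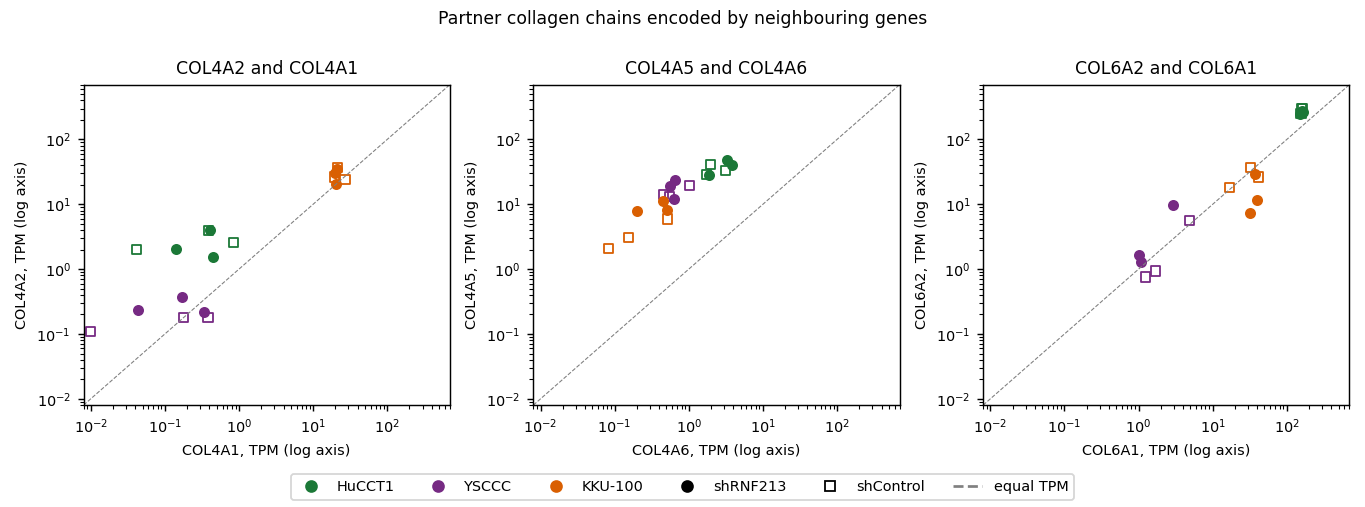
TPM (log axes, values under 0.01 drawn at 0.01) of COL4A2 against COL4A1, COL4A5 against COL4A6 and COL6A2 against COL6A1 in 18 libraries; colours are lines, filled circles shRNF213, open squares shControl, and the dashed line marks equal TPM. COL4A5 sits above the line in every library, and for COL6A2 and COL6A1 the filled YSCCC points lie above and the filled KKU-100 points below their open squares relative to that line.

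The other collagens include the anchoring fibril collagen COL7A1, the hemidesmosomal COL17A1, the short-chain COL8A1, the fibril-associated COL12A1 and COL16A1, the transmembrane COL13A1 and the basement membrane COL18A1, source of endostatin. HuCCT1 held the highest shControl level of 6 of these 7, among them COL17A1 with 152 ± 41.6 TPM, 68.9-fold above YSCCC. COL12A1 was the exception, with 197 ± 96.2 TPM in KKU-100, 127.5 ± 66.0 in YSCCC and 16.1 TPM in HuCCT1 shControl cells. COL8A1 was lower in YSCCC than in HuCCT1, with a log2 difference of -10.59 ± 0.45 (edgeR adjusted p = 1.62e-07), with at most 0.505 CPM in a YSCCC library.

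COL17A1 was the one gene of this group with a call under the hairpin. It had 3.495, 2.12 and 1.11 CPM in YSCCC shRNF213 replicates 1 to 3, against 6.27, 7.04 and 1.40 CPM in shControl replicates 1 to 3. It was lower in each pair, with replicate 3 lowest in both arms and the arms overlapping, and it fell by 1.04 ± 0.25 on the log2 scale (edgeR adjusted p = 0.0232); without replicate 1 or 2 the adjusted p was 0.14 and 0.218, with differences of -1.15 and -0.66. In HuCCT1, where it is abundant, COL17A1 had 321, 377 and 268 CPM in shRNF213, against 297, 545 and 350.3 CPM in shControl cells, and the difference of -0.27 ± 0.12 did not pass (edgeR adjusted p = 0.444). COL8A1 in HuCCT1 had 152, 79.1 and 229 CPM in shRNF213, against 203, 178 and 287 CPM in shControl cells. It was lower in each pair, by -0.64 ± 0.15, without passing the adjustment (edgeR adjusted p = 0.185). COL13A1 in KKU-100 differed by 1.341 ± 0.237 (edgeR adjusted p = 0.0644), with 6.78, 23.1 and 15.3 CPM in shRNF213 and 1.74, 8.49 and 8.75 CPM in shControl cells.

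Fibronectin, the main integrin ligand of provisional matrix, showed the lowest adjusted p of the 32 genes in the comparisons of arms. In YSCCC FN1 had 239, 224 and 152 CPM in shRNF213 replicates 1 to 3, against 571, 499 and 411 CPM in shControl replicates 1 to 3. The arms were far apart, with the highest shRNF213 library below the lowest control, and FN1 fell by 1.29 ± 0.09 on the log2 scale, a 2.44-fold difference (edgeR adjusted p = 2.64e-05). With 1 replicate left out the difference was -1.30, -1.36 and -1.21 and passed each time. Its share of the 32 genes' TPM was 7.28% ± 1.25 in YSCCC shRNF213 and 15.2% ± 3.53 in YSCCC shControl cells (SD, n = 3 each). In HuCCT1 it had 568, 429 and 525 CPM in shRNF213, against 491, 462 and 782.5 CPM in shControl cells, and in KKU-100 it had 51.8, 58.1 and 35.4 CPM in shRNF213, against 106, 44.2 and 36.1 CPM in shControl cells. In both lines the arms overlapped and the differences of -0.16 ± 0.13 and -0.24 ± 0.25 did not pass. The mean over lines was -0.56 ± 0.12 (edgeR adjusted p = 0.0204, lower in 7 of 9 pairs), and it missed the threshold in 6 of the 12 fits that left out 1 replicate number or 1 pair (adjusted p up to 0.132, without replicate 3 of all lines).

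The microfibril genes fell together in YSCCC: FBN1 and FBN2, which build the microfibrils, and LTBP1, which tethers latent TGF-beta to them, all passed. FBN2 had 3.73, 1.135 and 3.48 CPM in shRNF213 replicates 1 to 3, against 6.81, 5.26 and 11.8 CPM in shControl replicates 1 to 3. No shRNF213 library reached the lowest control, and it fell by 1.56 ± 0.23 on the log2 scale (edgeR adjusted p = 0.0016). FBN1 had 46.0, 17.4 and 36.5 CPM in YSCCC shRNF213, against 103, 60.7 and 40.1 CPM in shControl cells. It was lower in each pair though the arms overlapped, and it fell by 1.03 ± 0.21 (edgeR adjusted p = 0.011). LTBP1 had 41.3, 42.5 and 35.5 CPM in YSCCC shRNF213, against 100.4, 64.4 and 38.4 CPM in shControl cells. Its shRNF213 libraries were close together while the controls spread widely, and it fell by 0.67 ± 0.17 (edgeR adjusted p = 0.0251). Without replicate 1 or 2 FBN1 lost its call at -0.96 and -0.67 (adjusted p = 0.134 and 0.0886), and so did LTBP1 at -0.36 and -0.72 (adjusted p = 0.302 and 0.0944); paired DESeq2 also left FBN1 uncalled (adjusted p = 0.153). In shControl cells FBN1 was 6.42 ± 0.51 higher in YSCCC and 6.02 ± 0.51 higher in KKU-100 than in HuCCT1 on the log2 scale (edgeR adjusted p = 5.61e-06 and 5.84e-06).

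The matricellular genes marked single lines. THBS1, a secreted activator of latent TGF-beta, had 1471 ± 184 TPM in HuCCT1, 79.3 ± 40.4 in YSCCC and 13.2 ± 5.33 in KKU-100 shControl cells. SPARC, a collagen-binding glycoprotein, had 143 ± 77.2 TPM in YSCCC and under 1 TPM in every shControl library of the other lines, a 344-fold difference from the next line. TNC, the tenascin of wound and tumour stroma, was highest in KKU-100 at 7.30 ± 3.14 TPM, and the large proteoglycan VCAN in HuCCT1 at 6.92 TPM.

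SPARC fell in YSCCC. It had 174, 78.2 and 22.1 CPM in shRNF213 replicates 1 to 3, against 280.4, 215 and 71.8 CPM in shControl replicates 1 to 3. Replicate 3 was the lowest library of each arm, so the arms overlapped, but each pair was lower and SPARC fell by 1.27 ± 0.15 on the log2 scale (edgeR adjusted p = 0.000509), and the call held with any 1 replicate left out at -1.58, -1.18 and -1.07. THBS1 rose in YSCCC, with 360.4, 333 and 124 CPM in shRNF213 against 264, 289.8 and 79.3 CPM in shControl cells. The size was 0.43 ± 0.10 (edgeR adjusted p = 0.0171), higher in 3 of 3 pairs, and without replicate 1 the adjusted p was 0.145. TNC rose in KKU-100: 68.1, 66.7 and 37.6 CPM in shRNF213 stood against 36.8, 16.5 and 15.3 CPM in shControl cells. Every shRNF213 library was above every control, by 1.38 ± 0.21 (edgeR adjusted p = 0.0462), and without replicate 3 the difference of 1.43 was not called (adjusted p = 0.188). VCAN in HuCCT1 had 51.8, 31.2 and 72.2 CPM in shRNF213, against 11.7, 19.7 and 45.4 CPM in shControl cells; it was higher in each pair by 1.12 ± 0.24 and did not pass (edgeR adjusted p = 0.165). SPOCK1, a testican proteoglycan, had 5.08, 2.23 and 3.97 CPM in KKU-100 shRNF213, against 5.13, 5.65 and 6.13 CPM in KKU-100 shControl cells. The arms did not overlap, though replicate 1 of shRNF213 came close to the lowest control, and the difference of -0.67 ± 0.28 did not pass (edgeR adjusted p = 0.292).

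Of the basement membrane glycoproteins, HSPG2, the heparan sulfate proteoglycan perlecan, fell in YSCCC. It had 681, 895 and 561 CPM in shRNF213 replicates 1 to 3, against 1152, 1031 and 641 CPM in shControl replicates 1 to 3. It was lower in each pair with overlapping arms and fell by 0.39 ± 0.11 on the log2 scale (edgeR adjusted p = 0.0472), and without replicate 1 or 2 the adjusted p was 0.417 and 0.072, with a difference of -0.20 without replicate 1. AGRN, the agrin proteoglycan, had hairpin differences of 0.00 ± 0.09, 0.04 ± 0.09 and 0.08 ± 0.15 in HuCCT1, YSCCC and KKU-100, none of which passed. The nidogens, which link laminin to collagen IV, divided between lines: NID1 averaged 1.08 TPM in YSCCC and under 0.02 TPM in the other lines, and NID2 averaged 23.8 ± 8.91 TPM in KKU-100 and under 0.3 TPM in the other lines (shControl cells). NID2 in KKU-100 had 121, 87.0 and 55.0 CPM in shRNF213, against 63.6, 28.4 and 42.1 CPM in shControl cells, a difference of 0.96 ± 0.22 that did not pass (edgeR adjusted p = 0.119). NID2 overlaps the antisense gene RTRAF, which has up to 4618 counts, and the sources used here do not say whether counting used strand.

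**Figure D4:**
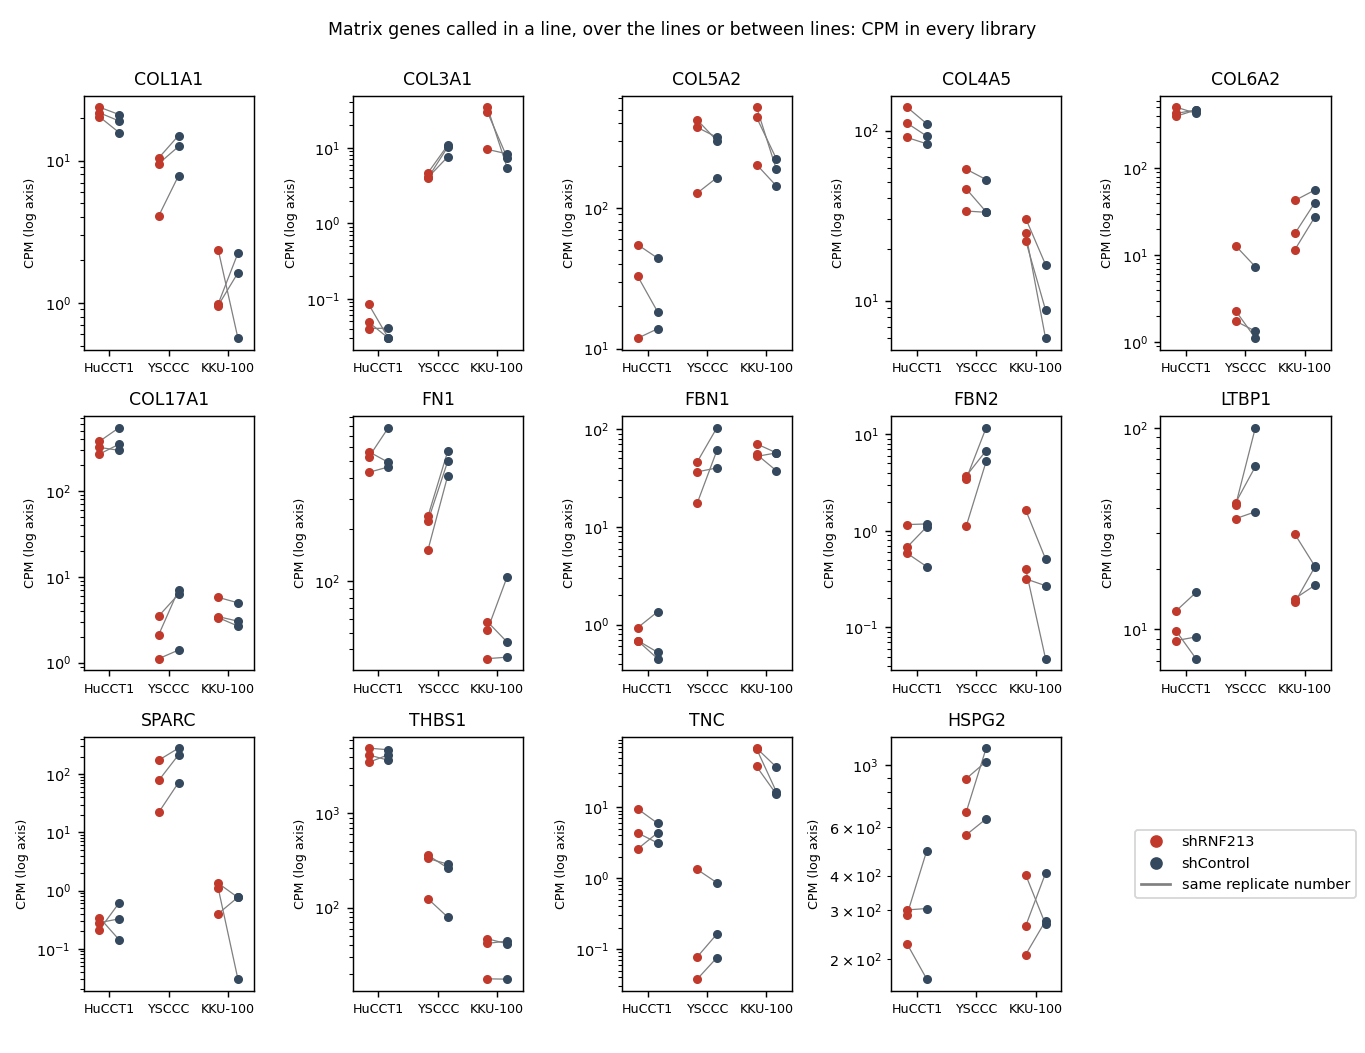
CPM (log axes, values under 0.03 drawn at 0.03) of the 14 genes called in a line, for the mean over lines or for a difference between lines, in each library; in each line shRNF213 points stand left of shControl points and grey lines join equal replicate numbers. FN1 in YSCCC and TNC and COL4A5 in KKU-100 show separated arms, whereas SPARC and COL6A2 in YSCCC show lines of the same direction but unequal slope, with replicate 3 far from the others.

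Whether the hairpin effect differed between lines was tested in the fit of 18 libraries. For YSCCC minus KKU-100, 4 genes had a lower effect in YSCCC: FBN2 by -2.99 ± 0.56, COL3A1 by -2.79 ± 0.46, COL17A1 by -1.29 ± 0.30 and COL4A5 by -1.16 ± 0.22 on the log2 scale (edgeR adjusted p = 0.0148, 0.00807, 0.0366 and 0.0148). COL6A2 had a higher effect in YSCCC, by 1.69 ± 0.27 (edgeR adjusted p = 0.00644). All genes gave 1.64% lower and 0.993% higher calls in this contrast, of 19143 tested. FBN2 was at most 1.65 CPM in KKU-100 libraries and was not tested there alone. In the 12 fits that left out 1 replicate number or 1 pair, COL3A1 and COL6A2 missed the threshold without replicate 1 or 3 of all lines (adjusted p up to 0.125 and 0.121), FBN2 also without KKU-100 pair 1 (up to 0.167), COL4A5 also without YSCCC pair 1 or 2 (up to 0.173), and COL17A1 in 8 fits (up to 0.167). KKU-100 minus HuCCT1 gave 1 call, COL4A5 at 1.15 ± 0.22 (edgeR adjusted p = 0.04996), where 0.235% of all genes were called; 11 of the 12 fits that left out 1 replicate number or 1 pair missed the threshold (adjusted p up to 0.331). YSCCC minus HuCCT1 gave 0 calls by edgeR, against 0.0470% of all genes. In this contrast 8 of 32 had an unadjusted p under 0.05, where 8.83% of all genes had one. Paired DESeq2 called 1 for YSCCC minus HuCCT1, with no share of all genes given. FN1 had -1.12 ± 0.29 in that contrast (edgeR adjusted p = 0.188) and -1.05 ± 0.29 for YSCCC minus KKU-100 (0.0721), so its fall in YSCCC was not shown to differ from the other lines. The mean effect over lines gave 2 higher genes, COL4A5 and COL5A2 (0.47 ± 0.11, edgeR adjusted p = 0.0406), and 1 lower, FN1, where 1.43% and 1.47% of all genes were called. COL5A2 lost its call in 8 of those 12 fits, the highest adjusted p being 0.403 at a difference of 0.30 without replicate 1 of all lines.

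Several of these genes moved with YSCCC replicate 3 in both arms. Of 24 genes averaging 1 CPM or more in YSCCC, 13 were lowest in replicate 3 in shRNF213 and in shControl alike and 5 were highest in it, against 29.2% and 41.0% of all genes at that level. SPARC in replicate 3 was 0.175 times the mean of the other replicates in shRNF213 and 0.290 times in shControl cells, and THBS1 0.359 and 0.287 times. COL6A2 in replicate 3 was 6.36 times the others in shRNF213 and 6.01 times in shControl cells, NID1 4.43 and 4.54 times. In HuCCT1, 11 of 23 genes were lowest in replicate 2 in both arms (28.0% of all genes), among them COL8A1 with 79.1 CPM in shRNF213 and 178 CPM in shControl cells. Leaving out YSCCC replicate 3 left 11 calls in YSCCC, 9 of them among the 11 reported, while COL1A1 and COL6A2 dropped out. The share of all genes called in that fit is not given here. What set these replicates apart was not tested.

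**Figure D5:**
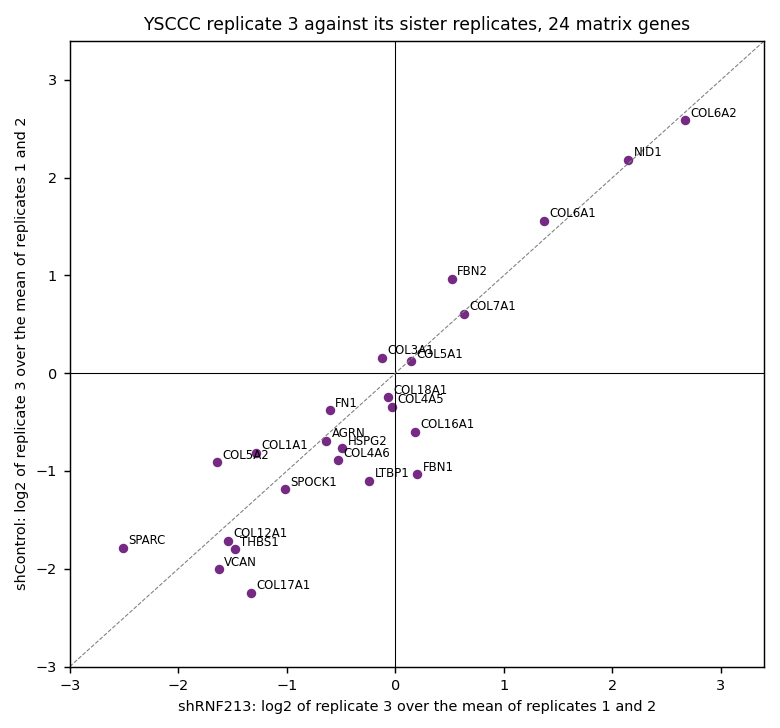
Log2 ratio of replicate 3 to the mean of replicates 1 and 2 in YSCCC shRNF213 (x axis) and shControl (y axis) for 24 genes averaging 1 CPM or more; the dashed line marks equal ratios. SPARC, VCAN, COL17A1, THBS1 and COL12A1 lie low in both arms and COL6A2, NID1 and COL6A1 high in both.

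Genes that process, bind or degrade these proteins were counted for context. Of all genes tested 4.56% fell and 3.69% rose in YSCCC, and 0.141% fell and 0.302% rose in KKU-100. For HuCCT1 the share was 0.140% in either direction. Of 28 tested genes of collagen folding and cross-linking, 10 fell and 0 rose in YSCCC, led by the collagen chaperone SERPINH1 (-1.88 ± 0.15), the prolyl hydroxylase family member P3H4 (-0.91 ± 0.12), the peptidyl-prolyl isomerase FKBP10 (-0.59 ± 0.11) and the procollagen C-proteinase BMP1 (-0.58 ± 0.12); the list's median was -0.30 against 0.01 over all genes. SERPINH1 also fell in HuCCT1 (-0.87 ± 0.11) and KKU-100 (-1.46 ± 0.11), and it was lower in 9 of 9 pairs (edgeR adjusted p = 4.08e-05 in YSCCC, 0.0272 in HuCCT1 and 0.00445 in KKU-100). In HuCCT1 the cross-linking oxidase LOX fell as well (-0.81 ± 0.10), so that 2 of 27 genes of this list fell there, and in KKU-100 SERPINH1 was the single call of 27. Among 21 matrix receptors tested in YSCCC 8 fell and 1 rose: the integrin chains ITGB3 (-1.85), ITGA2 (-1.13) and ITGA5 (-0.67) and the hyaluronan receptor CD44 (-0.69) fell, and the thrombospondin receptor CD36 rose (0.90). In KKU-100 1 of 19 receptors rose, the hemidesmosomal integrin ITGB4 (1.19), and in HuCCT1 0 of 19 were called.

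Of 11 laminin chains in YSCCC 3 fell, among them LAMA3 (-0.63) and LAMB2 (-0.37), and 2 rose (LAMA4 1.22 and LAMA1 0.86). Beside this list and those that follow, 4.56% of all genes tested in YSCCC fell and 3.69% rose. Of 13 genes of TGF-beta signalling to matrix, 3 fell, among them TGFBR3 (-1.002) and TGFBR1 (-0.71), and 2 rose (the matricellular CCN2 1.44 and TGFB1 0.47). Of 16 genes of matrix degradation 6 fell, the largest being ADAMTS1 (-1.07), PLAT (-0.61), PLAU (-0.59) and TIMP2 (-0.53), and the stromelysin MMP3 rose (2.26). Of 29 other matrix genes 5 fell, among them COL15A1 (-1.48), COL11A1 (-1.18), MATN2 (-0.61) and CCDC80 (-0.57), and 2 rose, the periostin gene POSTN (1.44) and COL9A3 (0.97). None of these 4 lists had a call in HuCCT1 or KKU-100 by edgeR at an adjusted p under 0.05. Few genes of any kind were called there: 0.140% in HuCCT1 in either direction, and 0.302% higher and 0.141% lower in KKU-100. All values of these lists are log2 fold changes from the paired fit and passed at that threshold, and their difference between lines was not tested list by list.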

How the data were processed

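Polyadenylated RNA was sequenced in 18 libraries of 3 cholangiocarcinoma lines, 3 with the RNF213 hairpin and 3 with a control hairpin each. The deposited tables hold, per gene, read counts made by the authors, the authors' TPM and FPKM values, and a deposited coverage signal; FPKM and coverage were not used. The submitters' processing notes name the build GRCh38 and, with no roles, HTSeq 0.6.1p1, StringTie 2.1.6, STAR 2.5.1b, DESeq2 1.34.0, FastQC 0.11.9 and Picard 1.139; no strand setting was found in the sources used here. Counts were fitted with edgeR 4.0.16 in R 4.3.3 (TMM factors, filterByExpr with a minimum count of 10 and total of 15, quasi-likelihood test, Benjamini-Hochberg threshold 0.05 over all genes tested), for each line, for 18 libraries together and for the 9 shControl libraries. CPM used TMM factors over 18 libraries, and TPM served for levels between genes.

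The replicate number was a block: over genes with a mean log2 CPM of at least 3, deviations of same-numbered libraries correlated by 0.706 to 0.787 in HuCCT1, 0.723 to 0.902 in YSCCC and 0.405 to 0.730 in KKU-100. Libraries of different numbers correlated by -0.649 to -0.195 in HuCCT1, -0.819 to 0.6565 in YSCCC and -0.554 to 0.122 in KKU-100. Deviations were taken from the mean of each arm in a line. Positive correlations at equal numbers therefore push those at different numbers down by arithmetic, and the contrast between them is partly fixed in advance. YSCCC replicates 1 and 2 also correlated across numbers (0.6565 and 0.516). Their pairing is therefore less clear than that of replicate 3. This pairing comes from the data and the shared numbers, not from a stated design. On simulated counts the YSCCC fit recovered 87 of 100 genes changed by 1 and 95 of 100 changed by 2 on the log2 scale, and the shControl contrast of YSCCC over HuCCT1 recovered 11 and 68 of 100. The simulated YSCCC counts held no shifts between replicates, and their spread came from the blocked fit. They therefore do not give the power for these libraries. Alternatives were RLE factors, no low-count filter, DESeq2 1.42.0, no replicate block, a fit of 18 libraries, and leaving out replicates; leaving out single pairs and DESeq2 without the block were chosen after seeing the data. All 32 genes were reported, with per-library values for called genes and some near the threshold that were chosen after their values were seen; of the context lists at most 4 called genes per direction and line were named, by size, and some of these are not reported here. The members and lists were chosen with earlier results of these data known.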

Additional observations from a re-analysis of the deposited data

Results flagged for a closer look

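For 5 genes the difference of the hairpin effect between lines passed the edgeR test in the fit of 18 libraries, which is what singles them out here; each value is a difference of log2 fold changes of shRNF213 over shControl. For YSCCC minus KKU-100 it was -2.79 for COL3A1, -2.99 for FBN2, -1.29 for COL17A1, -1.16 for COL4A5 and 1.69 for COL6A2. For KKU-100 minus HuCCT1 it was 1.15 for COL4A5. COL3A1, FBN2 and COL17A1 were lower in shRNF213 in 3 of 3 YSCCC pairs and higher in 3 of 3 KKU-100 pairs, COL6A2 was higher in 3 of 3 YSCCC pairs and lower in 3 of 3 KKU-100 pairs, and COL4A5 was higher in 3 of 3 pairs of each. FBN2 was too low to be tested in KKU-100 alone. KKU-100 grew in another medium, so line and medium cannot be told apart.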

How the results depend on the processing

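The replicate block decided the calls: without it edgeR called 0 of the 32 genes in each comparison of arms. No direction reversed in 269 values of 22 named hairpin results under the alternatives, of which 161 passed the threshold, and 658 of 675 values of 75 named shControl contrasts passed. These results were named because they had passed, and the alternatives reused the same libraries. An unchanged direction was therefore likely in advance. The counts of called genes moved as follows. HuCCT1 had 0 as reported, 2 with no low-count filter, 1 with DESeq2 and 0 to 4 without a replicate. YSCCC had 11 as reported, 6 in the fit of 18 libraries, 2 with DESeq2 without the block and 4 to 11 without a replicate. KKU-100 had 2 as reported, 6 with no filter, 6 with DESeq2, 7 in the fit of 18 libraries and 0 to 5 without a replicate. The mean effect had 3 as reported, 5 with DESeq2, 0 with DESeq2 without the block and 1 to 4 with replicates or pairs left out. YSCCC minus HuCCT1 had 0 as reported, 1 with no filter, 1 with DESeq2 and 0 to 1 with replicates or pairs left out. KKU-100 minus HuCCT1 had 1 as reported, 4 with no filter, 3 with DESeq2, 0 with DESeq2 without the block and 0 to 3 with replicates or pairs left out. YSCCC minus KKU-100 had 5 as reported, 12 with no filter, 9 with DESeq2, 1 with DESeq2 without the block and 1 to 9 with replicates or pairs left out. The shares of all genes called under these settings are not given beside the counts. From the counts printed here alone, a moved count cannot be told apart from a move over all genes. The cause of these moves was not tested. Genes under about 1 CPM, such as FBN2 in KKU-100, rest on few counts.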
